A study of Mus musculus with 28 samples.

Results

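Gene expression after a nicotine-induced seizure was compared between beta4 null and wild-type mice in 7 whole brains, 4 beta4 null and 3 wild-type, out of 28 arrays. The 7 mice were taken by genotype and treatment label and not by any measured value. The beta4-/- mice lack the beta4 subunit of the nicotinic acetylcholine receptor, and all mice are labelled C57BL/6J. The seized beta4 null mice were 3 males and 1 female, 3 of them 8 weeks old and 1 of them 7 weeks old. The seized wild-type mice were 1 male and 2 females, 1 of them 8 weeks old and 2 of them 7 weeks old. Sample titles begin with B4 for every beta4 null mouse, and with LT for 1 of 3 seized and 3 of 6 untreated wild-type mice, the other wild-type titles beginning with B4; what the prefix stands for is not stated. All 7 brains were taken 1 hour after the seizure. Nicotine was injected into the peritoneum at a dose that differed by genotype and was chosen to bring about seizures of like severity. The labels do not give the doses, so genotype and dose cannot be told apart. Untreated mice, 5 beta4 null (3 males, 2 females) and 6 wild-type (3 males, 3 females), all 6 to 9 weeks old, served to measure the genotype difference in animals that had no nicotine. The 10 alpha7+/T mice, 5 seized and 5 untreated, entered the fit but not the comparisons. They are labelled heterozygous for L250T in the alpha7 subunit of the receptor. Both sexes were among them, at 6 or 8 weeks of age. No mice were injected without a seizure.

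Nicotinic acetylcholine receptors are cation channels built of subunits around a pore, and nicotine opens them. The beta4 subunit joins mostly with alpha3, and often alpha5, in autonomic ganglia and in the medial habenula, a small nucleus of the dorsal midline. The genes Chrnb4, Chrna3 and Chrna5 lie side by side on mouse chromosome 9. Strong neuronal firing switches on immediate early genes within minutes, first transcription factors such as Fos and Egr1 and then effectors that act at synapses and vessels. The comparison asks whether brains that have had similar seizures differ in these or other transcripts when the beta4 subunit is missing.

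Each array gave a MAS5 signal, a linear intensity per probe set. Differences below are log2, beta4 null minus wild-type, from a limma fit to all arrays. The fit held the array class as a covariate, because 9 of 28 arrays had a log2 ratio of the Gapdh control at the 3' end over its 5' end between -0.478 and 0.0961, and the other 19 lay between 1.13 and 2.57. Among the seized mice, beta4 null mice 1 and 2 were of the low-ratio class, while beta4 null mice 3 and 4 and all 3 wild-type mice were of the high-ratio class. Among the untreated mice, 2 beta4 null arrays and 0 wild-type arrays were of the low-ratio class. The class effect was therefore estimated within the beta4 null and alpha7+/T mice only. The ratio averaged 0.728 in seized beta4 null mice and 1.81 in seized wild-type mice (exact permutation p = 0.4, two-sided). With 4 mice against 3 the exact test cannot go below p = 0.0571. Rank correlations ran from 0.871 to 0.973 between seized mice of the 2 genotypes. The female transcript Xist and the Y-linked Eif2s3y matched the labelled sex in all 7 seized mice. Both went against it in untreated wild-type mouse 5, labelled female, with an Eif2s3y signal of 89.1 and an Xist signal of 1.44. In untreated beta4 null mouse 3, labelled male, only Eif2s3y did, with a signal of 7.46. The Xist signal of that mouse, 9.95, lay within the range of the mice labelled male. The null label could not be checked on its own transcript, since no probe set was paired with Chrnb4.

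One gene passed the test. Of 7350 probe sets, 1 was called at an adjusted p of 0.05 (0.0136%; limma, Benjamini-Hochberg), and it was Spg21, lower in seized beta4 null brains. Without adjustment 215 probe sets (2.93%) had p below 0.05, 80 of them higher and 135 lower in the beta4 null mice, where 368 would be expected by chance. All probe sets other than Spg21 had adjusted p of about 1. By gene the share was 1.73% lower and 1.16% higher of 5599, and 52.2% of all genes stood below 0. The 95% interval of a difference, not adjusted for the number of probe sets, had a median half-width of 0.465 on the log2 scale. Smaller differences were mostly not detectable with these numbers of mice. Larger ones could also fail the adjusted test, as Pts did at -1.26. In the untreated mice 1 probe set was called (0.0136%), again Spg21, and 503 had an unadjusted p below 0.05 (by gene 2.98% lower and 4.11% higher). The genotype difference after seizure minus that without treatment was called for 0 probe sets (limma), with 403 at an unadjusted p below 0.05 (5.25% of genes). Values given below for genes other than Spg21 are therefore measurements that did not pass the test.

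**Figure D1:**
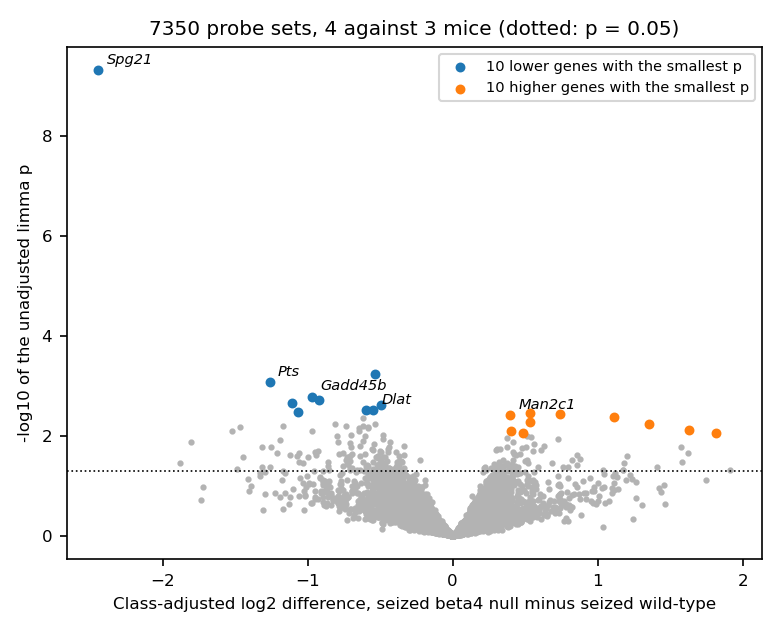
Class-adjusted log2 difference of each of 7350 probe sets (x axis) against -log10 of its unadjusted limma p (y axis), seized beta4 null minus seized wild-type mice. Blue and orange points are the 10 lower and the 10 higher genes with the smallest p, and the dotted line marks an unadjusted p of 0.05. Spg21, at -2.44, lies far above all other probe sets.

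Spg21 encodes maspardin, a protein of the endosomal and trans-Golgi membranes whose loss in humans causes Mast syndrome, a form of hereditary spastic paraplegia. It lies on chromosome 9, 123 protein-coding genes from Chrnb4 in gene order. Its promoter is shown because it is the start of the single gene that was called. RefSeq gives these 300 bases on GRCm38.p6, chr9:65460687-65460986, plus strand, from 250 bases before the transcript start to 50 bases after it:
Spg21: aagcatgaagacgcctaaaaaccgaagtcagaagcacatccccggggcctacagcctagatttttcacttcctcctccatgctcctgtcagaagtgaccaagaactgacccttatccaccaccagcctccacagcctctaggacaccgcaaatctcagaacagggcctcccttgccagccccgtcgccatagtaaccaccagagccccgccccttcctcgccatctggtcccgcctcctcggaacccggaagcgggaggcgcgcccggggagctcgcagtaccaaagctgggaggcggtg

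Spg21 signal was 48.7, 54.7, 81.4 and 84.5 in the seized beta4 null mice and 496, 555 and 441 in the seized wild-type mice. The highest beta4 null value lay far below the lowest wild-type value. The class-adjusted difference was -2.44 ± 0.26 (SE; 95% interval -2.98 to -1.91; limma, adjusted p = 3.47e-06), which is a 5.44-fold lower signal in beta4 null brains. In bulk brain, fewer cells that make a transcript and less of it in each cell cannot be told apart. Within the high-ratio arrays alone the difference was -2.58 (limma, adjusted p = 0.000107), and it was called in every alternative setting and with every mouse left out.

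The same gap stood between mice that had received no nicotine. Untreated beta4 null mice had Spg21 signals of 47.6, 49.4, 83.4, 82 and 102, against 441, 427, 477, 534, 433 and 212 in untreated wild-type mice. Again no beta4 null mouse reached the lowest wild-type mouse. The untreated difference was -2.16 (limma, adjusted p = 3.41e-07, 4.46-fold lower), and the seized difference exceeded it by -0.29, which did not pass the test (adjusted p = 0.968). Spg21 moved with the array class as well: the lowest 2 beta4 null values in each treatment came from low-ratio arrays. In the alpha7+/T mice its signal was 268, 127 and 174 on low-ratio arrays and 476 and 514 on high-ratio arrays after seizure, and 252 and 179 on low-ratio arrays and 285, 373 and 444 on high-ratio arrays without treatment. All 9 beta4 null values were nonetheless below the lowest alpha7+/T value of 127. Spg21 has 1 probe set here, and its name carries the suffix f, which marks probes that may also match related sequences. The part of such sequences in the signal was not tested. The brightest probe sets of Atf3, Gadd45b, Cryab and Ly6e, given below, carry the suffix f as well.

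**Figure D2:**
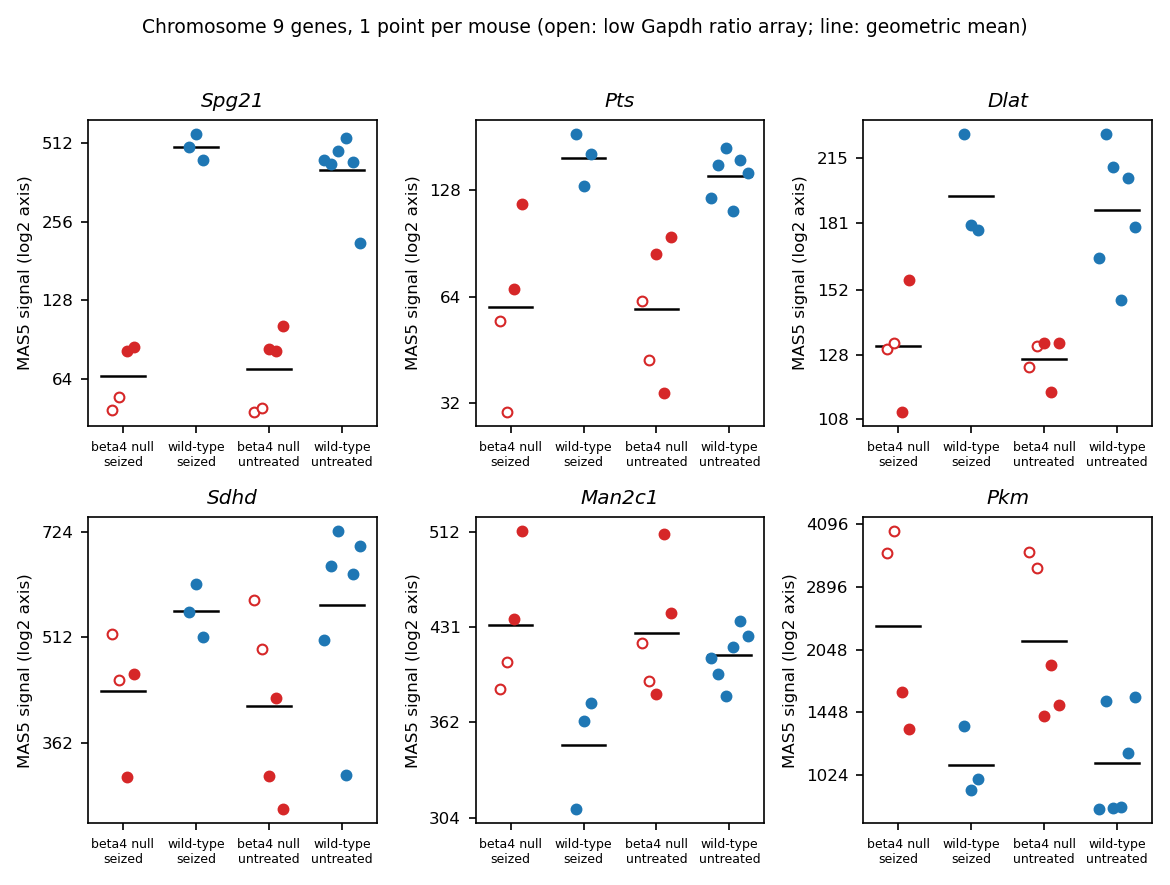
MAS5 signal (log2 axis) of 6 chromosome 9 genes in each mouse, for seized beta4 null, seized wild-type, untreated beta4 null and untreated wild-type groups. Open points are low-ratio arrays and lines are geometric means. Spg21, Pts and Dlat do not overlap between genotypes in either treatment, and the open points of Pkm stand apart from the filled ones.

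The measured genes closest to Spg21 on either side stood much nearer to 0. Pdcd7, at position 117 in the gene order counted from Chrnb4, stood at -0.32 ± 0.19, and Oaz2, an inhibitor of polyamine synthesis at position 128, at 0.32 ± 0.21 (SE). These 2 genes were chosen after their values were seen.

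Around Chrnb4 itself, the share of genes with a small unadjusted p was above that of all genes. Among the 100 protein-coding genes on either side, 62 were measured and 7 (11.3%) had p below 0.05, 5 lower and 2 higher, against 2.89% of all 5599 genes and 2.56% of the other 234 measured genes of chromosome 9. None of the 7 passed the adjusted test. In untreated mice 11 of the 62 (17.7%) had p below 0.05, against 7.09% of all genes and 11.1% of the other 234 measured genes of chromosome 9. Of the 62, 3 had it in both treatments with the same sign, namely Pts, Sdhd and Dlat. Such a p in both treatments, of either sign, was found in 4.84% of the 62, 0.855% of the other 234 and 0.304% of all genes. Spg21 and Myo6, on chromosome 9 but farther from Chrnb4, also had it in both. All 7 genes near Chrnb4 with p below 0.05 after seizure had the same sign in the untreated mice. So did 56.2% of the 162 such genes over the whole array, and 50.2% of all genes. The seized and untreated differences come from the same fit and the same class estimate, so their signs are not independent. The median difference over the 62 was 0.0217, beside -0.0103 over all genes. Without seized wild-type mouse 2 the count of 7 became 4, and with array weights it became 11.

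Pts, at position -59, encodes an enzyme that makes tetrahydrobiopterin, the cofactor needed for dopamine, noradrenaline and serotonin. Its signal was 54.5, 30.1, 67.1 and 117 in seized beta4 null mice and 185, 132 and 162 in seized wild-type mice. The groups did not overlap, although beta4 null mouse 4 came near the lowest wild-type mouse. The difference was -1.26 ± 0.34 (SE; limma, adjusted p = 1.00). It was -0.83 within the high-ratio arrays. Untreated beta4 null mice had 62.1, 42.4, 84.7, 34.1 and 94.6, against 122, 151, 169, 112, 156 and 143 in untreated wild-type mice, a difference of -1.14 that did not pass either (adjusted p = 0.378).

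Dlat and Sdhd, both near Pts, belong to mitochondrial energy metabolism. Dlat, the acetyltransferase of the pyruvate dehydrogenase complex, read 130, 132, 110 and 156 in seized beta4 null mice and 229, 180 and 178 in seized wild-type mice, with no overlap. Its difference was -0.55 ± 0.17 after seizure and -0.55 in untreated mice (limma, adjusted p = 1.00 after seizure, and adjusted p = 0.392 in untreated mice), and a dimmer second probe set stood at -0.12. Sdhd, a membrane anchor of succinate dehydrogenase, read 518, 445, 324 and 454 in seized beta4 null mice and 556, 610 and 512 in seized wild-type mice. One beta4 null mouse thus overlapped the wild-type group, and the difference was -0.55 ± 0.24, with -0.61 in untreated mice. Cryab, a small heat shock protein at position -48, stood at -0.49 after seizure and -0.54 in untreated mice. The gene 1110032A03Rik, at position -46, stood at -1.06 ± 0.47 after seizure, with overlapping groups, and at -0.06 in untreated mice.

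On the other side of Chrnb4, 2 of the genes with an unadjusted p below 0.05 were higher and 1 was lower. Man2c1, a cytosolic mannosidase at position 22, had signals of 385, 404, 437 and 513 in seized beta4 null mice and 309, 363 and 375 in seized wild-type mice. The beta4 null values were all above the wild-type ones, and the difference was 0.40 ± 0.13 (limma, adjusted p = 1.00), beside 0.12 in untreated mice. Rcn2, a calcium-binding protein of the endoplasmic reticulum, stood at -0.39 ± 0.18 and Anp32a at 0.31 ± 0.12. Adpgk, a glucokinase that uses ADP, at position 60, stood at -0.48 ± 0.27 with overlapping groups, and at -0.62 in untreated mice without overlap. For Ptpn9 and Sin3a, at positions 20 and 21, the differences were 0.23 and 0.25, and Ptpn9 stood at -0.13 without the class covariate. Pkm, the pyruvate kinase of glycolysis at position 67, showed how far a signal can follow the array class: beta4 null mice 1 and 2 had 3480 and 3940, beta4 null mice 3 and 4 had 1620 and 1320, and the wild-type mice had 1340, 944 and 1000. With the class in the fit its difference was 0.43 ± 0.21, without it 1.11, and its other probe set stood at -0.25.

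**Figure D3:**
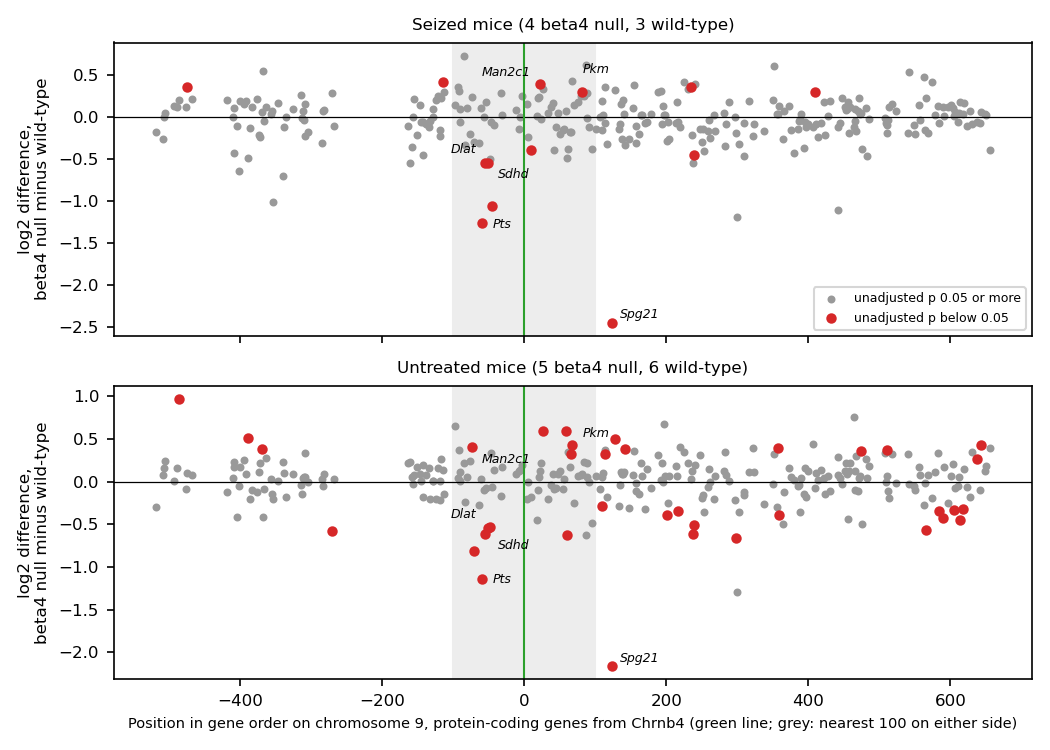
Class-adjusted log2 difference, beta4 null minus wild-type (y axes), of the measured genes of chromosome 9 by their place in gene order from Chrnb4 (x axis), in seized mice (top) and untreated mice (bottom). Red points have an unadjusted p below 0.05, and the grey band holds the nearest 100 protein-coding genes on either side. Pts, Sdhd, Dlat and Spg21 lie below 0 in both panels.

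Among immediate early transcription factors, the signals of the best known members overlapped between the genotypes after seizure. Fos and Atf3 promoters are shown to set a gene whose groups coincided beside one whose groups did not overlap. In these RefSeq sequences (GRCm38.p6; Fos chr12:85473640-85473939, plus strand; Atf3 chr1:191183284-191183583, minus strand), capitals mark the half-site TGACG of the cyclic AMP response element, or its reverse complement CGTCA:
Fos: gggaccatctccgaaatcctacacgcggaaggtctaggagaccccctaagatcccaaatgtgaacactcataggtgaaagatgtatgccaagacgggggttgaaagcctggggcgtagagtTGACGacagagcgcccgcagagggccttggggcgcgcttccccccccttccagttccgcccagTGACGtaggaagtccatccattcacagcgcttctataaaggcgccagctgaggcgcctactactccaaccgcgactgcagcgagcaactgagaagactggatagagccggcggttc
Atf3: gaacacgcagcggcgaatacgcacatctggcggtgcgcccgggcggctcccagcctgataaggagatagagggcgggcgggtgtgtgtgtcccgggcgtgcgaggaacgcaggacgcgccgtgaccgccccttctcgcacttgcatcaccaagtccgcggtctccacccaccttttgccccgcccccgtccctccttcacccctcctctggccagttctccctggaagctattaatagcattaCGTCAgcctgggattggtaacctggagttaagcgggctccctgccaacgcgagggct

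In the sequences shown, no 2 matches overlapped. The half-site was searched on both strands. It occurred in 20.8% of 32851 promoters of this length. By gene, it occurred in 23% of 27025 genes with a promoter in the table and in 11 of the 16 such early transcription factor genes that were measured (68.8%). Fos held 2 matches and Atf3 held 1, while Spg21 held 0, which says only that these letters are not in its window.

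Fos, a subunit of the AP-1 factor, had signals of 1270, 803, 1040 and 1080 in seized beta4 null mice and 1400, 1020 and 916 in seized wild-type mice. The 2 sets of values were interleaved, and the difference was 0.02 ± 0.44 (SE; 95% interval -0.89 to 0.92). Its sign turned in several alternative fits, all with values close to 0. Nr4a1, an orphan nuclear receptor, read 887, 504, 639 and 748 in seized beta4 null mice and 1070, 495 and 408 in seized wild-type mice, again overlapping, with a difference of 0.12 ± 0.30. Nr4a1 rose after seizure in each genotype on its own, by 1.45 in beta4 null mice and 1.52 in wild-type mice (limma, adjusted p = 0.0199 and 0.00606). Egr1, a zinc finger factor, stood at -0.21 ± 0.18 and Junb, another AP-1 subunit, at -0.08 ± 0.36, with 0.16 by its second probe set; the sign of Junb turned without the class covariate.

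Other early transcription factors read lower in the beta4 null mice without passing the test. Atf3, a stress-inducible member of the ATF family, had signals of 77.9, 70.1, 83.9 and 60.5 in seized beta4 null mice and 132, 111 and 96.6 in seized wild-type mice. These did not overlap, which was so for 5.57% of all genes in this direction, and the difference was -0.74 ± 0.32 (limma, adjusted p = 1.00). A dimmer Atf3 probe set stood at -0.84. Fosb read 315, 196, 215 and 300 in seized beta4 null mice and 431, 369 and 259 in seized wild-type mice, with overlap and a difference of -0.60 ± 0.28. Klf10, a zinc finger factor induced by growth factors, read 137, 224, 189 and 135 in seized beta4 null mice and 217, 218 and 213 in seized wild-type mice, a difference of -0.43 ± 0.16. Beta4 null mouse 2 exceeded all 3 wild-type mice for Klf10, while the other beta4 null mice lay below them.

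In untreated mice the differences of these genes were near 0, at 0.13 for Atf3, 0.004 for Fosb and 0.04 for Klf10. A second Klf10 probe set stood at -0.31 after seizure and at -0.35 in untreated mice. The seized difference minus the untreated one was -0.87 for Atf3 and -0.47 for Klf10 (limma, adjusted p = 0.908 for each). Against the untreated mice of its own genotype, Atf3 stood at 0.82 after seizure in beta4 null mice (adjusted p about 1) and rose by 1.69 in wild-type mice (limma, adjusted p = 0.0056). Fosb stood at 0.94 in beta4 null mice (adjusted p = 0.314) and rose by 1.54 in wild-type mice (adjusted p = 0.00323). Other genes went the other way. Klf4, also an early transcription factor, rose by 1.21 in beta4 null mice (limma, adjusted p = 0.0199). In wild-type mice Klf4 stood at 0.83 (adjusted p = 0.305). Ddit4, a stress-response gene, rose by 0.88 in beta4 null mice (limma, adjusted p = 0.0199) and stood at 0.52 in wild-type mice (adjusted p = 0.406). These contrasts share their seized mice with the genotype comparison and are another view of the same values.

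Over the whole list of immediate early transcription factors, 0 of 21 measured genes passed the test, and 3 (Klf10, Atf3 and Fosb) had an unadjusted p below 0.05, all lower, against 1.73% of all genes in that direction. The median difference was -0.112, with 13 of 21 below 0, beside -0.0103 over all genes and 0.0359 for the same list in untreated mice. The count of 3 became 1 without beta4 null mouse 2, beta4 null mouse 4 or wild-type mouse 2, 5 without wild-type mouse 1 or 3, and 6 with array weights. The median became 0.013 without beta4 null mouse 3.

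**Figure D4:**
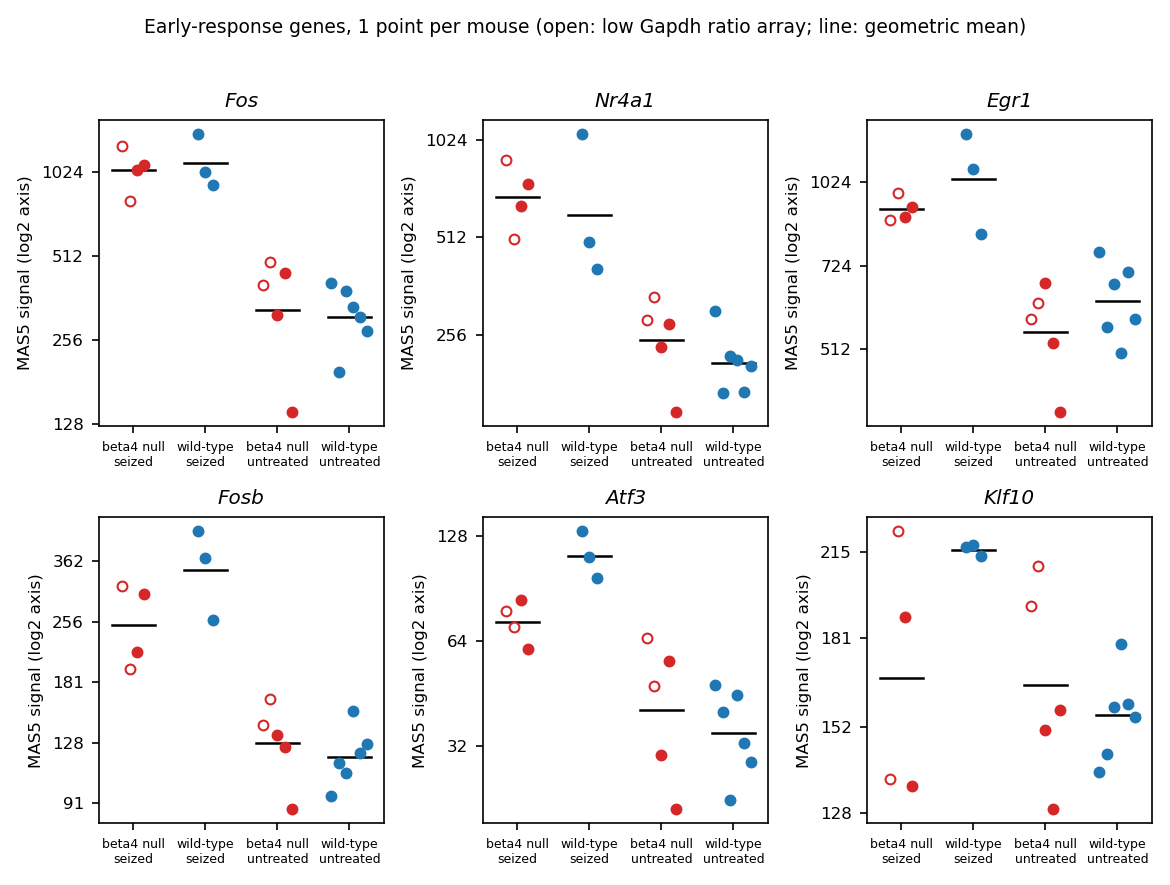
MAS5 signal (log2 axis) of 6 early-response genes in each mouse, in the same 4 groups. Open points are low-ratio arrays and lines are geometric means. Fos and Nr4a1 of seized mice overlap between genotypes, and the 4 Atf3 values of seized beta4 null mice lie below the 3 of seized wild-type mice.

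Effector genes that follow neuronal activity had differences mostly below 0. Of 15 measured effectors 0 passed the test and 12 were below 0, against 52.2% of all genes. Their median was -0.189, beside -0.0103 over all genes and 0.0534 for the list in untreated mice. Gadd45b, which takes part in DNA demethylation and stress signalling, read 78.6, 32.4, 95.5 and 99.6 in seized beta4 null mice and 161, 194 and 156 in seized wild-type mice. No beta4 null value reached the wild-type ones, and the difference was -0.97 ± 0.28 (limma, adjusted p = 1.00). Its second probe set stood at -0.70 with overlapping groups, and the untreated difference was -0.21. Ptgs2, the inducible prostaglandin synthase, read 77.6, 18.3, 15.9 and 50.8 in seized beta4 null mice and 63.9, 77.2 and 40.9 in seized wild-type mice, a wide overlap with a difference of -1.05 ± 0.55. Plat, the tissue plasminogen activator, stood at -0.44, and Dusp1, a MAP kinase phosphatase, at 0.55 ± 0.37.

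Genes listed for the Atf4 stress response were next. Of 22 measured members 0 passed, 3 had an unadjusted p below 0.05 and were lower (Mthfd2, Atf3 and Xbp1), against 1.73% of all genes in that direction. Atf3 was also among the 3 lower early transcription factors, so the counts of these lists are not separate. The median was -0.0829, with -0.0103 over all genes and 0.101 for the list in untreated mice. The summed signal of the list ran from 7828 to 8300 in seized beta4 null mice and from 8509 to 8945 in seized wild-type mice, without overlap. Such sums are not adjusted for array class, and those of the energy metabolism list did not overlap the other way, at 33270 to 41370 in seized beta4 null mice and 31550 to 32960 in seized wild-type mice. Mthfd2, a mitochondrial enzyme of folate metabolism, read 135, 115, 182 and 171 in seized beta4 null mice and 256, 280 and 303 in seized wild-type mice. The groups were well apart, and the difference was -0.59 ± 0.18 (limma, adjusted p = 1.00), against 0.17 in untreated mice. Xbp1, a factor of the unfolded protein response, read 366, 327, 443 and 407 in seized beta4 null mice and 530, 586 and 535 in seized wild-type mice, a difference of -0.37 ± 0.17. Cebpb stood at -0.56 ± 0.28.

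Among 38 measured heat shock proteins and chaperones 0 passed and 26 were below 0, against 52.2% of all genes, with a median of -0.0727 beside -0.0103 over all genes. Canx, a lectin chaperone of the endoplasmic reticulum, read 103, 113, 137 and 106 in seized beta4 null mice and 204, 159 and 159 in seized wild-type mice. The groups did not overlap and the difference was -0.58 ± 0.20, but the other Canx probe set stood at -0.04. Tcp1, a subunit of the cytosolic chaperonin, stood at -0.67 ± 0.33 and Hspa5, the main chaperone of the endoplasmic reticulum, at -0.47 ± 0.25. Glucocorticoid-responsive genes (21 measured, median -0.118), circadian genes (17 measured, median -0.131) and MAP kinase feedback genes (8 measured, median -0.0197) had 0 members with an unadjusted p below 0.05. The share over all genes was 2.89%, so a count of 0 says little in lists this short.

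**Figure D5:**
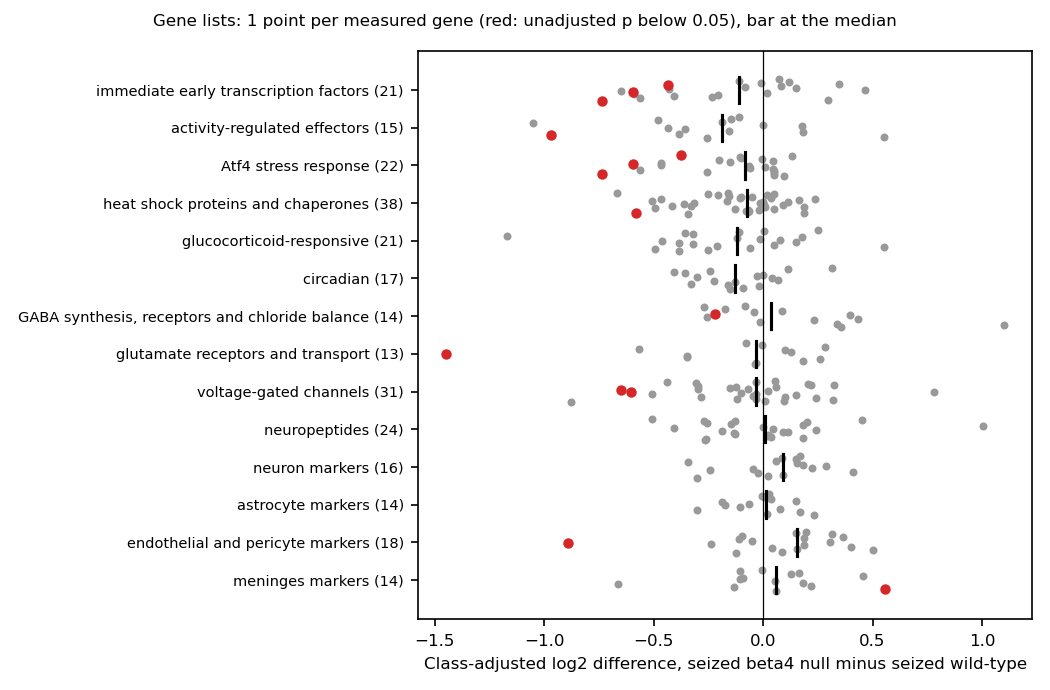
Class-adjusted log2 difference, seized beta4 null minus seized wild-type (x axis), for each measured gene of 14 lists, with the number measured in brackets. Red points have an unadjusted p below 0.05 and black bars are medians. Medians of the early, effector, stress and chaperone lists lie between -0.189 and -0.0727, and no listed gene passed the adjusted test.

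Few nicotinic receptor genes could be measured. Chrna7, the alpha7 subunit, read 83.8, 91.9, 67 and 78.8 in seized beta4 null mice and 47.7, 56.3 and 71.5 in seized wild-type mice, with 1 beta4 null mouse inside the wild-type range. With the class in the fit the difference was 0.07 ± 0.42, and without it 0.47. Of the muscle subunits, Chrng gave dim signals and stood at -1.16 ± 0.58 after seizure and -1.79 in untreated mice. Chrne stood at -0.55 ± 0.42 after seizure and at 0.80, the other sign, in untreated mice. Ache, the enzyme that breaks down acetylcholine, stood at 0.32 ± 0.26 after seizure. Ly6e, of a family whose members can bind nicotinic receptors, stood at 0.17 ± 0.16 (-0.22 without the class covariate). Of 6 measured markers of the medial habenula 0 had an unadjusted p below 0.05, against 2.89% of all genes, and 3 were below 0. The tachykinins Tac1 and Tac2 stood at -0.13 and -0.27, the neuropeptide Cck at 0.18 and the calcium-binding protein Calb2 at 0.12.

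Among genes of fast inhibition and excitation, the median difference was 0.0357 over 14 GABA genes and -0.0318 over 13 glutamate genes, with 1 lower gene at an unadjusted p below 0.05 in each list, against 1.73% of all genes. Gad1, an enzyme that makes GABA, read 1880, 1890, 1980 and 1770 in seized beta4 null mice and 2160, 2200 and 2280 in seized wild-type mice. The spread within each group was small and the groups did not overlap, with a difference of -0.22 ± 0.10 (limma, adjusted p = 1.00). In untreated mice the sign was the other way, with 2160, 2010, 2080, 2060 and 2110 in beta4 null mice and 1730, 1770, 1720, 1720, 1620 and 2060 in wild-type mice, a difference of 0.25. The seized difference minus the untreated one was -0.47 (limma, adjusted p = 0.852). Gabbr1, a subunit of the GABA-B receptor, stood at 0.36 ± 0.18. Grin2b, a subunit of the NMDA receptor, stood at -1.45 ± 0.62, but its signals were dim and followed the class, at 44.8 and 73.5 in beta4 null mice 1 and 2, 5.33 and 14 in beta4 null mice 3 and 4, and 18.2, 23.5 and 21.7 in wild-type mice. Without the class in the fit Grin2b stood at 0.09.

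Of 31 measured voltage-gated channel genes, 2 potassium channel genes had an unadjusted p below 0.05, both lower, against 1.73% of all genes in that direction. Kcnd2, which carries the transient A-type current of dendrites, read 176, 139, 303 and 260 in seized beta4 null mice and 422, 452 and 372 in seized wild-type mice. The difference was -0.65 ± 0.23 with no overlap, its dimmer probe set stood at -0.18, and the untreated difference was -0.03. Kcnab1, an auxiliary subunit, read 109, 159, 202 and 170 in seized beta4 null mice and 334, 224 and 254 in seized wild-type mice, a difference of -0.61 ± 0.25. Of 24 neuropeptide genes 0 had an unadjusted p below 0.05, against 2.89% of all genes. The 18 measured monoamine genes include Pts. Among the others Drd4, a dopamine receptor, stood at -0.50 ± 0.23 after seizure and at 0.43 in untreated mice, and En1, a factor of midbrain dopamine neurons, at 0.79 ± 0.37 after seizure.

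Markers of brain cell types were measured and did not pass the test, with 0 called in any list. Summed signals of 16 neuron markers ran from 18170 to 22210 in seized beta4 null mice and from 17120 to 17870 in seized wild-type mice. Those of 14 astrocyte markers ran from 16850 to 18680 in beta4 null mice and from 15910 to 17620 in wild-type mice, and those of 9 oligodendrocyte markers from 7492 to 9077 in beta4 null mice and from 6755 to 8044 in wild-type mice. The neuron sums did not overlap, and no neuron marker had an unadjusted p below 0.05, against 2.89% of all genes. These sums are not adjusted for array class, and their part in the differences above was not tested. Microglia markers (12 measured, 2513 to 2757 in beta4 null mice and 2211 to 2726 in wild-type mice) and endothelial and pericyte markers (18 measured, 1606 to 2032 in beta4 null mice and 1666 to 1697 in wild-type mice) overlapped. The median difference of the endothelial list was 0.154, with 6 of 18 below 0; Kdr, a VEGF receptor, stood at -0.89 ± 0.43, while Emcn and Sox17 stood at 0.40 and 0.36. The meninges list had a median of 0.0575, with 6 of 14 below 0; Col1a1, a collagen, stood at 0.56 ± 0.21 and Fmod, a matrix proteoglycan, at -0.66 ± 0.66. No signal in the deposited values is 0, the lowest being 0.0251, so the absence of a marker could not be read from them.

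The remaining genes with the smallest p were of varied function. Lower in the seized beta4 null mice were Efs, an adaptor of Src signalling (-0.53 ± 0.14), Dusp12, a phosphatase (-0.92 ± 0.27), Ifrd1, a transcriptional co-regulator (-1.10 ± 0.33), and Wdr92, a WD repeat protein (-0.49 ± 0.15). Ifrd1 read 109, 72.2, 165 and 89 in seized beta4 null mice and 245, 216 and 228 in seized wild-type mice. Wdr92 read 1080, 948, 1300 and 1570 in seized beta4 null mice and 1760, 2400 and 1930 in seized wild-type mice. Neither gene overlapped between the seized groups, and their untreated differences were -0.08 and 0.10. Against untreated mice Wdr92 rose by 1.02 in seized wild-type mice (limma, adjusted p = 0.000137) and stood at 0.42 in seized beta4 null mice (adjusted p = 0.838). The test of that difference between genotypes gave -0.60 and did not pass (limma, adjusted p = 0.852), and it uses the same seized mice. One probe set of Ccni, a cyclin, stood at -1.07, while its far brighter one stood at 0.14.

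Higher in the seized beta4 null mice were Wbp4, a splicing factor (0.53 ± 0.17), Tnks1bp1, a tankyrase-binding protein (0.74 ± 0.23), Pax4, a homeobox factor (1.11 ± 0.36), Dffa, an inhibitor of the caspase-activated nuclease (0.53 ± 0.18), Nbl1, a BMP antagonist (1.63 ± 0.56), Npepps, an aminopeptidase (0.40 ± 0.14), Ank3, the ankyrin of the axon initial segment (0.49 ± 0.17), and Vhl, a ubiquitin ligase subunit (1.82 ± 0.65). Tnks1bp1 read 111, 83.8, 86.8 and 86.4 in seized beta4 null mice and 47.4, 47 and 56.6 in seized wild-type mice, without overlap, as was so for 4.38% of all genes in this direction. Vhl was dim and scattered, at 67.8, 67.9, 31.6 and 4.32 in seized beta4 null mice and 4.58, 3.6 and 9.38 in seized wild-type mice. For Dffa the other probe set stood at -0.08, and for Ank3 the brighter one stood at 0.29. Lcat, a cholesterol acyltransferase, stood at 1.35 by 1 probe set and at -0.03 by the brighter one.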

How the data were processed

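RNA from the whole brain was measured on U74Av2 arrays, with 28 mice and 1 array for each. The deposited values are MAS5 signal intensities on a linear scale, per the submitters' processing notes, and were used unchanged: on a median array the mean without the lowest and highest 2% was 150.1, and array medians ran from 43.59 to 61.05. The number of arrays limits the precision.

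Of 12488 probe sets, 66 controls were left out; 10833 had 1 gene in the platform annotation, 396 several and 1193 were not listed. Probe sets above their own array's median in at least 3 arrays were kept (7350, 59.2%, for 5599 genes), and values were taken as log2. A gene table of assembly GRCm38.p6 gave current symbols (10817 matched) and gene order. limma (version 3.58.1, R 4.3.3; lmFit, eBayes with trend) fitted 6 group means and array class (Gapdh 3' over 5' log2 ratio below 0.5) to all 28 arrays, with two-sided p adjusted by Benjamini-Hochberg at 0.05. The code was tested on simulated data. Single values used the exact permutation test over mice (35 splits).

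Genes were named by rule: the 10 lower and 10 higher with the smallest p, up to 12 among the 100 genes on either side of Chrnb4, nicotinic receptors, 7 early genes, and up to 4 members per list described. A gene is given by its brightest probe set unless named by rank. The comparison, array class, lists and rules were chosen with earlier results of these data known. Alternatives covered normalization, filters, a floor, eBayes options, array weights, class, sex, age, title prefix, subsets of mice and each mouse left out.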

Additional observations from a re-analysis of the deposited data

Results flagged for a closer look

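Of 117 groups of 4 to 6 mice checked for 1 mouse far from the rest, 6 had one, where chance alone gives about 1 in 20, or 5.8. In seized beta4 null mice, Tnks1bp1 read 111 in mouse 1, against 83.8 to 86.8 in the others. In untreated beta4 null mice, Lcat read 63.1 in mouse 3, against 22 to 27.6 in the others, and Wdr92 read 694 in mouse 1, against 938 to 1040. In untreated wild-type mice, Spg21 read 212 in mouse 6, against 427 to 534 in the others. Mthfd2 read 306 and Nbl1 read 19.6 in untreated wild-type mouse 1, against 225 to 251 and 86.1 to 187 in the others.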

How the results depend on the processing

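Over 19 other settings, 1 added after seeing the data (the compared groups alone on high-ratio arrays) and 18 fits that each left out 1 mouse, the seized comparison called 1 probe set, Spg21, and the interaction called 0. The untreated count ran from 1 to 2, with 2 without untreated beta4 null mouse 5. Spg21 lay between -2.92 and -2.35 over the settings and between -2.53 and -2.36 with a mouse left out (limma, adjusted p 9.24e-09 to 0.00323). Of 66 named genes, none gained or lost a call, and 7 uncalled ones changed sign under some setting, 32 values in all; the cause was not tested. Without the class covariate, in the fit to all arrays and to the compared groups alone, Ptpn9 stood at -0.13, Fos at -0.082, Junb at 0.19, Ly6e at -0.22 and Grin2b at 0.085. Fos stood at -0.075 with array weights, -0.044 on high-ratio arrays (also in the compared groups alone), -0.11 with sex, -0.057 with age and -0.14 in mice of 7 weeks or older. Chrna7 stood at -0.022 with array weights, -0.053 with sex and -0.070 when wild-type mice were limited to the B4 prefix, and Junb at 0.0041 with the title prefix as a term and 0.080 with that prefix alone. With 1 mouse left out, Chrna7 ran from -0.10 to 0.22, Fos from -0.11 to 0.19, Junb from -0.26 to 0.080 and Nr4a1 from -0.16 to 0.53. The median of the 62 genes near Chrnb4 was 0.092 with arrays centred on the median, 0.0846 with the stricter filter and -0.0724 without the class covariate. No paired analysis was possible because replicate numbers were given in accession order and pair no mice. Dim signals, and 4 mice against 3, limit what could be detected.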
